A study of Arabidopsis thaliana with 12 samples.

Results

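The WRKY transcription factors described here are 54 Arabidopsis loci of WRKY groups I, II and III. They were taken by locus identifier from the 37336 genes of the deposited transcript table, and all 54 loci were found. Their levels were followed in seedlings of Col-0 wild type (WT) and of Col-0 carrying CsPYL1_5m, in which an abscisic acid (ABA) receptor of sweet orange, engineered to respond better to synthetic agonists, is made as an HA-tagged protein from the constitutive 35S promoter. Each genotype was mock-treated with 0.1% DMSO or treated with 5 µM iSB09, a synthetic ABA receptor agonist, for 3 hours, and 3 independent experiments gave 12 libraries in 4 groups. All seedlings were grown in liquid medium, for 12 days by the sample labels, while the methods of the study give an age of 10 days. Homozygous T3 plants were used, and the number of independent transgenic lines behind the sequenced seedlings was not given in the sources used here. The comparisons asked how each WRKY gene responded to iSB09 with the plant's own receptors, how it responded with the engineered receptor added, and whether the 2 responses differed.

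WRKY proteins are plant transcription factors named after a conserved peptide in their DNA-binding domain, which recognises the W box, a short DNA motif with the core TTGAC. Group I members carry a pair of WRKY domains, group II members (subgroups a to e) and group III members a single domain, the latter with a different zinc finger. The family is best known for defence, leaf senescence and nutrient signalling, and several members act in ABA signalling: WRKY40, WRKY18 and WRKY60 form complexes with each other and affect ABA sensitivity, and loss of WRKY63 (ABO3) makes seedlings hypersensitive to ABA.

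Levels are given in TPM, a transcript abundance normalised for gene length and library total, and the number of reads on genes, recovered from the deposited values, was 21501994 to 21754250 in the 6 WT libraries and 25746038 to 30696820 in the 6 CsPYL1_5m libraries. Every CsPYL1_5m library was thus deeper than every WT library, and depth and genotype cannot be told apart. In whole seedlings a lower level can come from less RNA per cell or from fewer cells of a type, which cannot be told apart either. The summed level of 5 shoot markers was 36229 to 38653 TPM in mock-treated and 28426 to 39145 TPM in iSB09-treated WT, and 34099 to 36913 TPM and 27052 to 31509 TPM in CsPYL1_5m. Among 5 root markers, the nitrate transporter gene NRT2:1 fell in both genotypes (log2 fold change −1.90 in WT and −4.45 in CsPYL1_5m). The summed level of the root markers was 3928 to 4098 TPM in mock-treated and 2978 to 3569 TPM in iSB09-treated WT, and 4192 to 4386 TPM and 3415 to 3752 TPM in CsPYL1_5m. The part of these shifts in the WRKY results was not tested. The second replicate of iSB09-treated WT stood apart: 1152 and 788 genes differed by more than 1 on the log2 scale between it and replicates 1 and 3, against 185 genes between replicates 1 and 3. WRKY genes were high in this library. Without it, the WT log2 fold changes of members described below were 0.59 for WRKY6, 0.32 for WRKY57, 0.21 for WRKY45, 0.65 for WRKY8, 0.66 for WRKY11 and 0.55 for WRKY40. Those of members with lower levels after iSB09 in CsPYL1_5m were −0.36 for WRKY47, −0.45 for WRKY7, −0.51 for WRKY72 and −0.74 for WRKY54.

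iSB09 raised or lowered 14 of the WRKY genes in CsPYL1_5m seedlings and 3 in WT, with WRKY49 (lower) and WRKY75 (higher) changing most. A gene was called when limma gave a Benjamini-Hochberg adjusted p below 0.05 over all genes tested and a log2 fold change beyond 1 in either direction, on the log2(TPM + 0.5) scale, which understates the change of low genes. Of the 54 members, 45 passed the filter of 1 TPM in all 3 replicates of a group and were tested in every comparison. In CsPYL1_5m seedlings iSB09 changed 14 of the 45 tested members, 6 upward and 8 downward (31.1%), where 17.5% of all 19862 tested genes were called, 9.17% upward and 8.35% downward. In WT it changed 3 of 45 (6.67%), WRKY70 and WRKY75 upward and WRKY18 downward, where 3.82% of 19612 genes were called, 2.28% upward and 1.54% downward, and without iSB09 replicate 2 it was 2 members, WRKY70 and WRKY18. Without ligand limma called 0 of 45 members between the genotypes, against 0.0666% of 19530 genes (0.0512% higher and 0.0154% lower in CsPYL1_5m). The response itself differed between the genotypes for 7 of 45 members, 6 more negative and 1 more positive in CsPYL1_5m, where 9.63% of 20081 genes were called, 6.03% more positive and 3.6% more negative.

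The median log2 fold change of the 45 members after iSB09 was 0.20 in WT, against 0.01 over all tested genes, and 0.05 in CsPYL1_5m, against −0.16 over all tested genes. Rescaling the libraries by median ratios removes a shift of the median over all genes by construction, and in CsPYL1_5m this median became −0.00452. A value in CsPYL1_5m is to be read beside the shift of −0.16. Whether that shift came from the scaling or from small decreases of many genes was not tested. With that scaling the split over all genes was 2150 higher and 1208 lower instead of 1821 and 1659, and 7 members rose and 7 fell, WRKY22 losing its call and WRKY4 gaining one (log2 fold change 1.04). The counts for the members are read beside these shares and were given no test of their own.

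**Figure D1:**
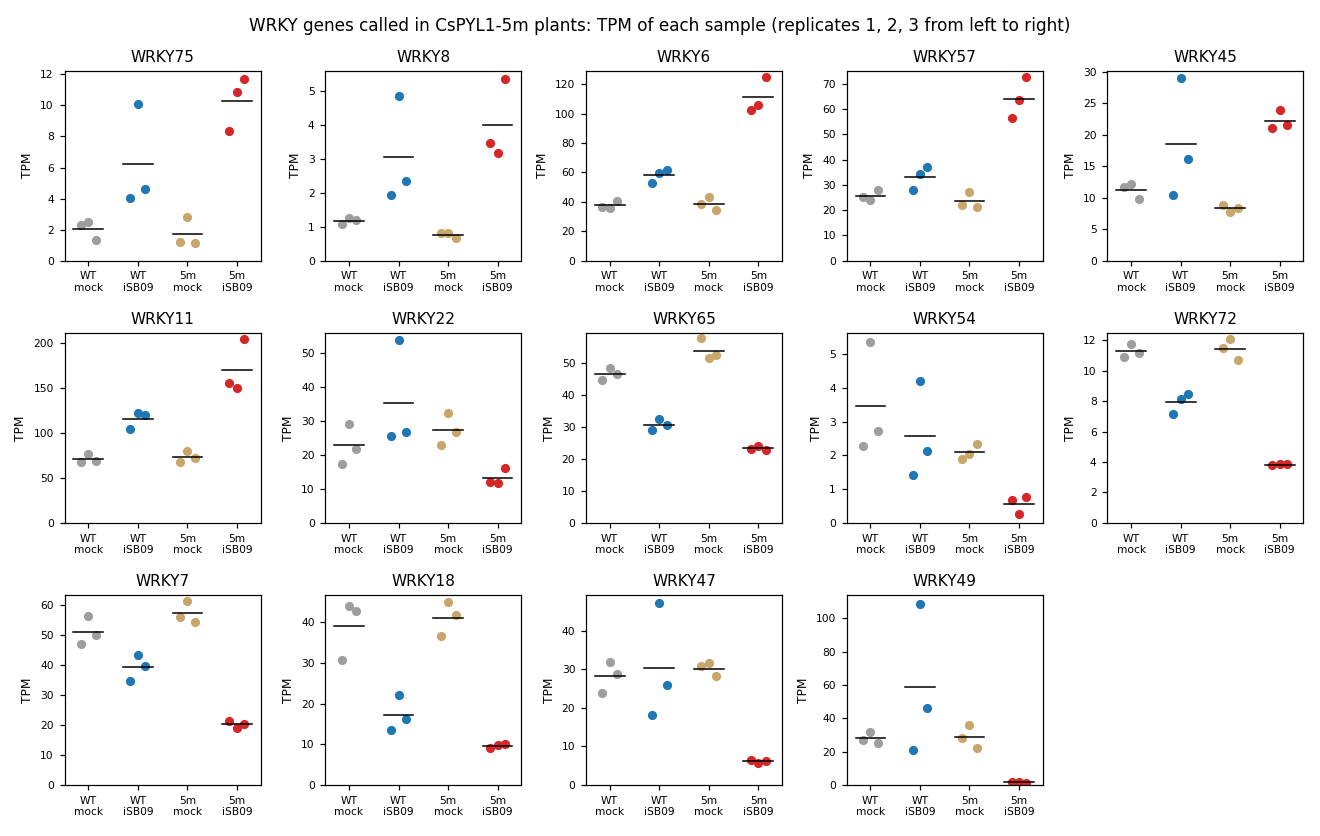
TPM (vertical axes, from 0) of the 14 WRKY genes called after iSB09 in CsPYL1_5m seedlings, in each of the 12 samples, with replicates 1, 2 and 3 from left to right in each group, and the group mean as a bar. WRKY49 drops from 28.8 to 1.71 TPM in CsPYL1_5m. The middle point of iSB09-treated WT, replicate 2, is the highest of its group for all of these genes but WRKY6, WRKY57 and WRKY72.

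The 250 bases upstream of the annotated start are shown for 3 members that moved in opposite directions, to set the data beside the motifs that WRKY proteins and ABA-response factors bind. Sequences are from the TAIR10.1 genome and are written 5′ to 3′ on the strand of the gene, with W boxes (TTGACC or TTGACT) and the core of the ABA-responsive element (ABRE, ACGTG) in capitals wherever they were found on either strand. A CACGTG holds the ABRE core on both strands. WRKY75 (chr5:4151202-4151451, minus strand) and WRKY45 (chr3:327413-327662, minus strand) rose in CsPYL1_5m, while WRKY18 (chr4:15382527-15382776, plus strand) fell.
WRKY75: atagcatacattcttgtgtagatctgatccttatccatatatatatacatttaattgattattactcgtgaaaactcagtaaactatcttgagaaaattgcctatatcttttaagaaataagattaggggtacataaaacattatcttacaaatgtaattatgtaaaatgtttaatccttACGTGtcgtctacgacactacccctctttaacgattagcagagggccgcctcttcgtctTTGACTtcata
WRKY45: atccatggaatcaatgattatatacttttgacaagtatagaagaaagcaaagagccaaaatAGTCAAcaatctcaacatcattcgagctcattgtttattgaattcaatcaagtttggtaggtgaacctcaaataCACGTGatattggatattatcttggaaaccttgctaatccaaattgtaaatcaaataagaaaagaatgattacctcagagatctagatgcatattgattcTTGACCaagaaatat
WRKY18: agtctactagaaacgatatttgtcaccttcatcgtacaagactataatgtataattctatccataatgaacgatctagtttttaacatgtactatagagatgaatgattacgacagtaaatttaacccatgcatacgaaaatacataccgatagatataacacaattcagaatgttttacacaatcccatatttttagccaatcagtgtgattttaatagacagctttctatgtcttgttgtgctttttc

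WRKY75 held a W box that starts 11 bases before the gene start and an ABRE core at 70 bases. WRKY45 held W boxes at 15 and 189 bases and a CACGTG whose overlapping ABRE cores start at 114 and 115 bases. WRKY18 held neither motif in this window. Of the 6 members called higher in CsPYL1_5m, 3 held a W box and 2 an ABRE core. The 2 with an ABRE core were WRKY75 and WRKY45, so the windows shown are not typical of the members that rose. WRKY6, WRKY8 and WRKY57 rose and held neither motif. Of 7 members called lower, 1 held a W box (WRKY72) and 1 an ABRE core (WRKY54). Over 53 members, 18 (34.0%) held a W box and 15 (28.3%) an ABRE core, against 28.4% and 22.9% of the same window in 27442 protein-coding genes. A match is a description of the letters and not evidence of binding.

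**Figure D2:**
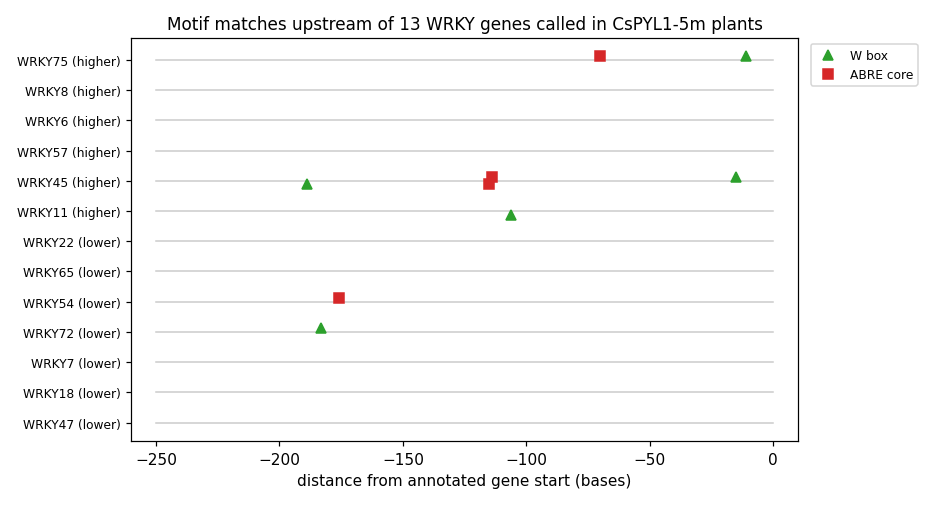
Positions of W boxes (triangles) and ABRE cores (squares) in the 250 bases upstream of 13 WRKY genes called in CsPYL1_5m seedlings, with the distance from the annotated gene start in bases on the horizontal axis and genes ordered from the most raised to the most lowered; a symbol above the line is on the strand of the gene and one below it on the other strand. WRKY45 carries the most matches, 2 W boxes and 2 overlapping ABRE cores, and 8 of the 13 genes carry none.

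Among the members that rose in CsPYL1_5m, the largest increase was that of WRKY75 (AT5G13080, group IIc), a regulator of phosphate starvation responses and leaf senescence. It stood at 1.17, 2.83 and 1.12 TPM in mock-treated and at 8.32, 10.9 and 11.7 TPM in iSB09-treated CsPYL1_5m seedlings, replicates 1, 2 and 3 in this order here and in all later lists. All 3 treated samples lay above all 3 mock samples, and the mean rose 6.03-fold from 1.71 ± 0.97 TPM to 10.3 ± 1.76 TPM (SD, n = 3; log2 fold change 2.36 ± 0.26 SE, limma adjusted p = 4.96e-05). In WT the levels were 2.29, 2.49 and 1.35 TPM in mock and 4.03, 10.1 and 4.65 TPM after iSB09. These groups did not overlap either (log2 fold change 1.33 ± 0.34, limma adjusted p = 0.0419), but the call was lost without any of 5 of the 6 libraries, all except iSB09 replicate 1. Without iSB09 replicate 2 the log2 fold change was 0.96. The WT call was also lost without the filter, without the variance trend and with voom on recovered reads (limma adjusted p = 0.0715, 0.0521 and at most 0.0621). The difference between the responses of WRKY75 was not called with all 12 libraries, TPM scaling and no replicate block. Over the single libraries left out it ranged from 0.79 to 1.40. In a fit blocked on replicate number, a pairing that is not established, the response was called more positive in CsPYL1_5m than in WT (difference 1.03, limma adjusted p = 0.0465). WRKY45 (AT3G01970, group IIc), which activates a phosphate transporter gene, was at 8.9, 7.68 and 8.33 TPM in mock and 21.1, 23.9 and 21.5 TPM after iSB09 in CsPYL1_5m. Its treated samples were all more than 2 times the highest mock sample (log2 fold change 1.37 ± 0.09, limma adjusted p = 1.21e-06). In WT its levels of 11.7, 12.2 and 9.74 TPM and 10.4, 29.1 and 16.1 TPM overlapped, with the highest value in replicate 2.

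WRKY6 (AT1G62300, group IIb) and WRKY57 (AT1G69310, group IIc) combined a sizeable starting level with a rise in CsPYL1_5m. WRKY6, which acts in phosphate allocation and senescence, was at 38.6, 43.5 and 34.4 TPM in mock and 103, 106 and 125 TPM after iSB09. The groups lay far apart (log2 fold change 1.51 ± 0.10, 2.86-fold, limma adjusted p = 2.1e-06), while WT stood at 37.8 ± 2.53 TPM in mock and 58.1 ± 4.67 TPM after iSB09 (log2 fold change 0.61, adjusted p = 0.00779 by limma). The difference between these responses was 0.89 ± 0.15 (limma adjusted p = 0.000847), short of the size needed for a call. WRKY57, known for a drought tolerance that follows from raised expression, was at 22.1, 27.3 and 21.2 TPM in mock and 56.3, 63.6 and 72.6 TPM after iSB09. Its treated samples again lay above all mock samples (log2 fold change 1.43 ± 0.12, limma adjusted p = 6.9e-06), while in WT 25.2, 23.9 and 28.1 TPM stood against 28.1, 34.5 and 36.9 TPM. With all 12 libraries, TPM scaling and no replicate block, WRKY57 was the only member called for a more positive response in CsPYL1_5m than in WT (difference 1.07 ± 0.18, limma adjusted p = 0.00108); without iSB09-treated WT replicate 1 or iSB09-treated CsPYL1_5m replicate 3 it was 0.96 or 0.98 and no longer past the size threshold.

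WRKY8 and WRKY11 complete the group that rose. WRKY8 (AT5G46350, group IIc), a salt stress and defence regulator, was low in mock-treated CsPYL1_5m at 0.806, 0.812 and 0.66 TPM and stood at 3.45, 3.16 and 5.35 TPM after iSB09. No sample overlapped (log2 fold change 1.80 ± 0.19, 5.25-fold, limma adjusted p = 3.12e-05). In WT 1.07, 1.25 and 1.19 TPM in mock stood against 1.92, 4.85 and 2.34 TPM, and the log2 fold change of 0.996 missed both thresholds (limma adjusted p = 0.0621), though both were passed without iSB09 replicate 1 (1.22, limma adjusted p = 0.0386). WRKY11 (AT4G31550, group IId), a negative regulator of basal resistance to bacteria, had the highest level of the 6: 68.2, 79.8 and 72.6 TPM in mock and 155, 150.1 and 205 TPM after iSB09 in CsPYL1_5m. The change was 1.19 ± 0.12 on the log2 scale (limma adjusted p = 2.27e-05), and in WT, with 67.6, 76.8 and 68.7 TPM in mock and 105, 122 and 121 TPM after iSB09, it was 0.70 (limma adjusted p = 0.00521). Its close relative WRKY17, which acts with WRKY11 in resistance, had log2 fold changes of −0.22 in CsPYL1_5m and 0.05 in WT.

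Of the members that fell, WRKY49 (AT5G43290, group IIc; TAIR10.1 chromosome 5, minus strand, 3 exons) changed most. It was at 28.4, 35.8 and 22.2 TPM in mock-treated CsPYL1_5m and at 1.94, 1.68 and 1.52 TPM after iSB09. The 6 samples did not overlap, the mean was 16.8-fold lower (28.8 ± 6.8 TPM against 1.71 ± 0.208 TPM, SD, n = 3), and the log2 fold change was −3.70 ± 0.16 (limma adjusted p = 1.33e-07). In WT the mock samples were at 26.9, 32 and 25.5 TPM and iSB09-treated samples at 20.9, 109 and 46.4 TPM. Replicates 2 and 3 were above and replicate 1 below all mock samples, and the log2 fold change of 0.75 ± 0.51 was not past the threshold (limma adjusted p = 0.359). The response in CsPYL1_5m minus that in WT was −4.45 ± 0.60 (limma adjusted p = 0.00021), and −3.86 without iSB09-treated WT replicate 2, where the WT log2 fold change was 0.15. Without iSB09-treated WT replicate 1 WRKY49 was called higher in WT (1.33, limma adjusted p = 0.0404), and the difference between the responses was −5.03. In mock the log2 difference between the genotypes was 0.01 ± 0.16.

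WRKY47 (AT4G01720, group IIb) followed a like pattern. It was at 30.7, 31.6 and 28.1 TPM in mock and 6.36, 5.81 and 6.35 TPM after iSB09 in CsPYL1_5m, a 4.88-fold lower mean without overlap (log2 fold change −2.20 ± 0.08, limma adjusted p = 4.25e-08). In WT 23.9, 31.8 and 28.9 TPM stood against 18.1, 47.1 and 25.9 TPM, groups that overlapped (log2 fold change 0.01). The difference between the responses was −2.20 ± 0.35 (limma adjusted p = 0.000744) and −1.84 without WT iSB09 replicate 2. WRKY7 (AT4G24240, group IId), a calmodulin-binding member, was at 56, 61.1 and 54.4 TPM in mock and 21.4, 19 and 20.3 TPM after iSB09 in CsPYL1_5m. All treated samples were below all mock samples (log2 fold change −1.48 ± 0.07, limma adjusted p = 3.15e-07). In WT, 47, 56.2 and 50.1 TPM against 34.8, 43.2 and 39.7 TPM gave −0.38 (limma adjusted p = 0.0574), and the difference between the responses was −1.10 ± 0.13 (limma adjusted p = 0.000108). After rescaling by median ratios that difference was −0.93 and no longer past the size threshold.

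WRKY72 (AT5G15130, group IIb), which contributes to basal immunity, was at 11.5, 12.1 and 10.7 TPM in mock and 3.81, 3.84 and 3.84 TPM after iSB09 in CsPYL1_5m. Its groups lay apart in both genotypes (log2 fold change −1.46 ± 0.09, limma adjusted p = 8.18e-07; in WT, 10.9, 11.8 and 11.1 TPM against 7.15, 8.12 and 8.48 TPM, log2 fold change −0.49). WRKY54 (AT2G40750, group III), a restraint on leaf senescence together with WRKY70, was low throughout, at 1.88, 2.03 and 2.35 TPM in mock and 0.678, 0.276 and 0.766 TPM after iSB09 in CsPYL1_5m. The log2 fold change was −1.30 ± 0.21 (limma adjusted p = 0.000466), and −0.98, short of the size threshold, with a pseudocount of 1. In WT 2.27, 5.37 and 2.72 TPM overlapped 1.41, 4.21 and 2.14 TPM. WRKY65 and WRKY22 were the remaining calls. WRKY65 went from 54 ± 3.31 TPM to 23.3 ± 0.703 TPM in CsPYL1_5m (log2 fold change −1.19) and stood at 46.7 ± 1.84 TPM and 30.8 ± 1.74 TPM in WT (−0.59). WRKY22, which acts downstream of a MAP kinase cascade in the response to flagellin, went from 27.2 ± 4.79 TPM to 13.2 ± 2.45 TPM (−1.01), and its call was lost without mock replicate 2 (−0.88), without iSB09 replicate 1 (−0.96) or without iSB09 replicate 2 (−0.93). The other 13 calls in CsPYL1_5m were kept without any single library.

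Of the 3 group IIa genes, the WRKY genes most closely tied to ABA signalling, WRKY18 was called in both genotypes and WRKY40 and WRKY60 in neither when all libraries were used. WRKY18 (AT4G31800) was at 36.5, 44.9 and 41.7 TPM in mock and 9.11, 9.82 and 10.2 TPM after iSB09 in CsPYL1_5m, and at 30.8, 44.1 and 42.7 TPM and 13.5, 22.1 and 16.3 TPM in WT. It fell in both genotypes without overlap of the groups, 4.23-fold in CsPYL1_5m (log2 fold change −2.02 ± 0.09, limma adjusted p = 1.5e-07) and 2.27-fold in WT (−1.17 ± 0.20, adjusted p = 0.012). The WT call was lost without mock replicate 2, mock replicate 3 or iSB09 replicate 3 (limma adjusted p = 0.0587, 0.0671 and 0.0507), and the log2 fold change ranged from −1.36 to −1.01 over the single libraries left out. The difference between the responses was −0.85 ± 0.24 (limma adjusted p = 0.0183), under the size threshold.

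WRKY40 (AT1G80840), a repressor of ABA-responsive genes, was at 8.77, 10.3 and 10.8 TPM in mock and 10.2, 14.8 and 13.8 TPM after iSB09 in CsPYL1_5m, and at 9.21, 9.98 and 11.3 TPM and 17.7, 24.8 and 12.8 TPM in WT. The groups overlapped in CsPYL1_5m (log2 fold change 0.35 ± 0.14, limma adjusted p = 0.0521) but not in WT, where the value of 0.79 ± 0.22 missed the threshold (limma adjusted p = 0.0536). Without WT iSB09 replicate 3 WRKY40 passed both thresholds (1.014, limma adjusted p = 0.0336) and was the only member called in WT. WRKY40 overlaps an annotated gene on the other strand, and the counting used no strand, so reads from the stretch that the pair shares cannot be told apart. How far this changed the level of WRKY40 was not tested. WRKY60 (AT2G25000) was at 24, 27.6 and 23.6 TPM in mock and 15.2, 17 and 18.7 TPM after iSB09 in CsPYL1_5m. It was lower without overlap but by less than the size threshold (log2 fold change −0.55 ± 0.10, limma adjusted p = 0.000798). In WT its levels of 21.4, 26.7 and 23.6 TPM and 18.3, 43.1 and 21.6 TPM overlapped, and without iSB09 replicate 2 the WT log2 fold change was −0.25 instead of 0.11. WRKY63 (ABO3, AT1G66600, group III) had between 1 and 15 reads per library, at most 1.14 TPM, and was not tested. It lay at 0.606, 0.293 and 0.153 TPM in WT mock, 1.14, 0.307 and 0.308 TPM in WT iSB09, 0.207, 0.274 and 0.0524 TPM in CsPYL1_5m mock and 0.159, 0.166 and 0.316 TPM in CsPYL1_5m iSB09.

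**Figure D3:**
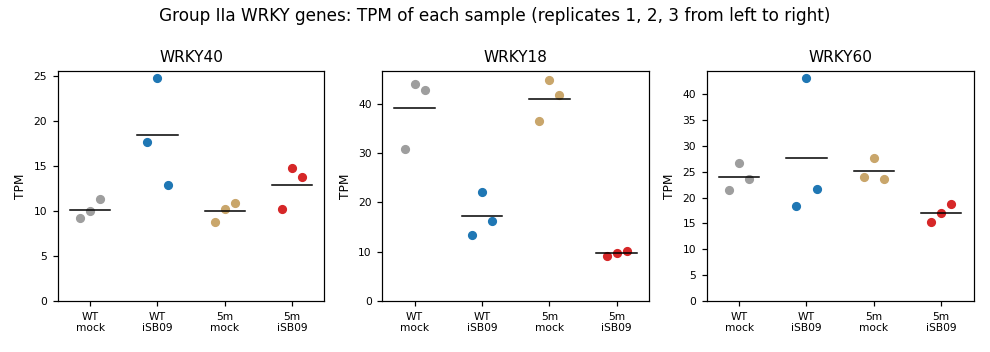
TPM (vertical axes, from 0) of the group IIa genes WRKY40, WRKY18 and WRKY60 in each of the 12 samples, with replicates 1, 2 and 3 from left to right in each group, and the group mean as a bar. WRKY18 is lower after iSB09 in both genotypes, at 17.3 TPM in WT and 9.7 TPM in CsPYL1_5m, while the iSB09-treated WT samples of WRKY40 and WRKY60 spread widely.

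Of the members in WT, WRKY70 (AT3G56400, group III), a salicylic acid-dependent regulator of defence, was the most raised member. It was at 5.05, 11.3 and 5.51 TPM in mock and 13.4, 38.7 and 19.3 TPM after iSB09. The treated samples all lay above the mock samples, the highest being replicate 2 (log2 fold change 1.59 ± 0.42, limma adjusted p = 0.0439). Without that library the log2 fold change was 1.18, and the call was lost without any of the 3 mock libraries or without iSB09 replicate 3 (limma adjusted p up to 0.158). The call was also lost with median-ratio scaling, with the RPKM values, without the filter, without the variance trend and with voom on recovered reads (limma adjusted p = 0.0519, 0.0509, 0.0739, 0.0595 and at most 0.0593). In CsPYL1_5m 4.99, 3.99 and 5.16 TPM stood against 6.71, 8.17 and 9.04 TPM (log2 fold change 0.70 ± 0.13, limma adjusted p = 0.00148). The difference between the responses did not pass the test (−0.90, adjusted p = 0.178 by limma). Counting every member with an adjusted p below 0.05 by limma, whatever its size, gave 9 of 45 in WT (20%, beside 14.6% of all genes tested) and 32 of 45 in CsPYL1_5m (71.1%, beside 66.4%). Of the latter, 18 stayed below the size threshold, 11 with positive values (24.4% of members, beside 14.9% of all genes) and 7 with negative values (15.6%, beside 34%). The iSB09 and mock samples did not overlap for 16 of 45 members in WT (35.6%) and 34 of 45 in CsPYL1_5m (75.6%), beside 38.7% and 71.9% of all genes tested.

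Besides WRKY49, WRKY47, WRKY7 and WRKY57, the response differed between the genotypes for WRKY22, WRKY46 and WRKY42. WRKY22 was 22.8 ± 5.95 TPM in mock and 35.3 ± 16 TPM after iSB09 in WT, with 53.7 TPM in replicate 2 (difference −1.58, limma adjusted p = 0.00816, and −1.23 without that library). WRKY46 (group III), which acts with WRKY54 and WRKY70 in growth and drought responses, was not called in either genotype alone: it was 1.91 ± 0.472 TPM and 4.08 ± 2.02 TPM in WT, and 2.3 ± 0.591 TPM and 1.37 ± 0.664 TPM in CsPYL1_5m (difference −1.48, limma adjusted p = 0.0255, and −1.15 without WT iSB09 replicate 2). WRKY42 (group IIb), a repressor of a phosphate transporter gene together with WRKY6, was 2.43 ± 1.03 TPM and 3.18 ± 0.264 TPM in WT, and 2.16 ± 0.0934 TPM and 1.23 ± 0.221 TPM in CsPYL1_5m (difference −1.01, limma adjusted p = 0.0212). The difference for WRKY42 fell short of the size threshold after rescaling by median ratios (−0.88), with the RPKM values (−0.87) and with a pseudocount of 1 (−0.83). The call of WRKY46 was lost without 5 of the 12 single libraries (both genotypes' mock replicate 1, and CsPYL1_5m mock replicate 3, iSB09 replicate 1 and iSB09 replicate 2; differences of −1.75 to −1.15 over all 12), and that of WRKY42 without 7 (WT mock replicates 2 and 3, WT iSB09 replicates 1 and 3, CsPYL1_5m mock replicates 1 and 2, and CsPYL1_5m iSB09 replicate 2; −1.28 to −0.80). After rescaling by median ratios 6 members were called, 2 more positive and 4 more negative, with WRKY6 gained (1.06). Over all genes it gave 1489 more positive and 466 more negative instead of 1211 and 722. Without WT iSB09 replicate 2, 10 members were called, the same 7 plus WRKY75, WRKY45 and WRKY8 (differences of 1.40, 1.16 and 1.15).

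**Figure D4:**
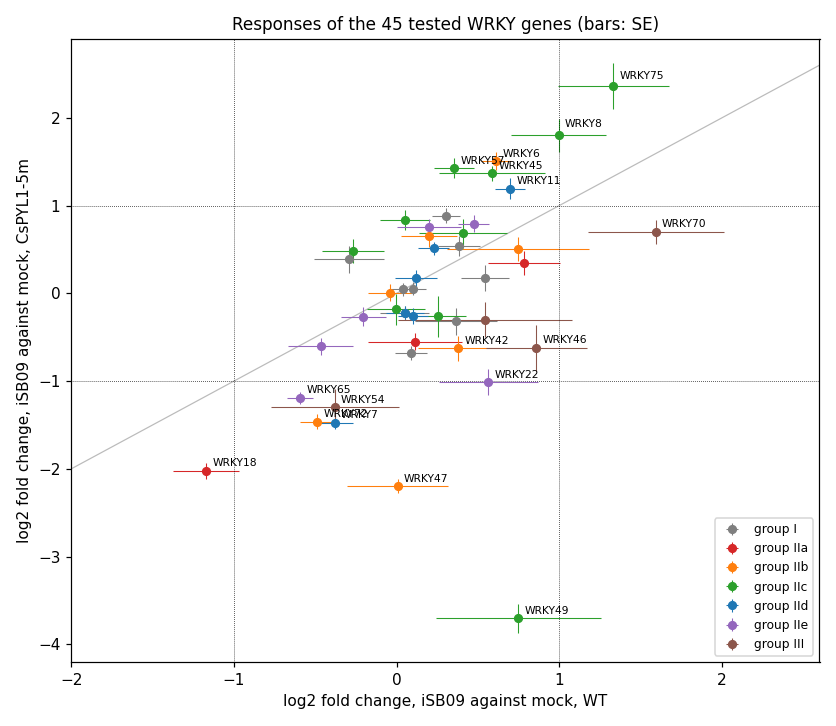
Log2 fold change of the 45 tested WRKY genes after iSB09 in WT (horizontal axis) and in CsPYL1_5m (vertical axis), with SE bars, coloured by subgroup; dotted lines mark the size threshold of 1 and the grey line equal responses. WRKY49, at 0.75 in WT and −3.70 in CsPYL1_5m, lies farthest from the line of equal responses, and WRKY70 is the only named gene in the plot that was called in WT but not in CsPYL1_5m or for the difference.

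The calls in CsPYL1_5m were then read by subgroup. Of all genes tested there, 9.17% were called upward and 8.35% downward, with a median log2 fold change of −0.16. In WT 3.82% of all genes were called. In group IIc 4 of 10 tested members rose (WRKY75, WRKY8, WRKY57 and WRKY45) and 1 fell (WRKY49), with a median of 0.76. In group IIe 2 of 6 fell (WRKY65 and WRKY22), and in group IIb 1 of 7 rose (WRKY6) and 2 fell (WRKY47 and WRKY72). Group IId had 1 rise (WRKY11) and 1 fall (WRKY7) among 6, group IIa 1 fall (WRKY18) among 3, and group III 1 fall (WRKY54) among 4. Group I, whose 9 members all passed the filter, had no call in either genotype, with log2 fold changes between −0.68 and 0.88 in CsPYL1_5m. WRKY33, a group I activator of camalexin synthesis, was 34.8 ± 1.48 TPM in mock and 40.1 ± 10.2 TPM after iSB09 in CsPYL1_5m (log2 fold change 0.17) and 32.9 ± 2.73 TPM and 48.8 ± 9.33 TPM in WT (0.54, limma adjusted p = 0.0473). The group I pair WRKY3 and WRKY4, both linked to resistance against necrotrophic fungi, had opposite signs in CsPYL1_5m: WRKY3 was 29.9 ± 1.9 TPM in mock and 18.5 ± 1.4 TPM after iSB09. WRKY4 was 16.9 ± 1.22 TPM and 31.6 ± 2.56 TPM. Neither pair of groups overlapped (log2 fold changes −0.68 and 0.88, limma adjusted p = 8.09e-05 and 1.98e-05), and neither reached the size threshold, except WRKY4 after median-ratio scaling. The subgroup counts were not tested against each other.

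Without ligand no member was called between the genotypes. The log2 differences of the 45 members, CsPYL1_5m minus WT, lay between −0.54 (WRKY54) and 0.27 (WRKY22), with a median of −0.04 against −0.01 over all genes. None was called by limma, on TPM or with voom on recovered reads, and 4 of 45 (8.89%) had an unadjusted p below 0.05, beside 8.7% of all genes. The summed level of the 54 members was 822 to 931 TPM in WT mock and 859 to 944 TPM in CsPYL1_5m mock. After iSB09 it was 877 to 1306 TPM in WT and 919.8 to 1120.0 TPM in CsPYL1_5m.

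The 9 members that failed the filter were at low levels. WRKY63, WRKY30, WRKY51, WRKY41, WRKY55, WRKY74, WRKY71, WRKY38 and WRKY12 reached at most between 0.0666 TPM (WRKY41, at most 1 read) and 6.12 TPM (WRKY38) in a library. WRKY38 (group III), a defence regulator, was at 0.297, 6.12 and 0.601 TPM in iSB09-treated WT and no higher than 0.629 TPM in the other 3 groups, so its high value came from replicate 2 alone, with 102 reads. WRKY30 (group III) was at 0.368, 0.26 and 0.373 TPM in mock and 0.627, 0.787 and 1.55 TPM after iSB09 in CsPYL1_5m, and at 0.419, 1.1 and 0.543 TPM and 0.421, 1.88 and 0.547 TPM in WT. No fold change is given for these genes.

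Many members were highest in the same library of a group. Of 52 members with at least 1 TPM in some library, 35 (67.3%) were highest in replicate 2 within iSB09-treated WT, beside 34.7% of all genes, and 14 (26.9%) exceeded 2 times the mean of the other replicates, beside 3.77% of all genes. Other groups also had a library that held most of the highest values. In WT mock 30 of 52 (57.7%) were highest in replicate 2, and in CsPYL1_5m mock 31 (59.6%), beside 26.9% and 41.3% of all genes. In iSB09-treated CsPYL1_5m 41 of 52 (78.8%) were highest in replicate 3, beside 43.8% of all genes. The median deviation of the 45 tested members from their group mean was 0.15 on the log2 scale in WT iSB09 replicate 2 and 0.14 in CsPYL1_5m iSB09 replicate 3, while single genes reached 1.19 and 0.54. The summed level of 12 touch and wound genes was 176, 216 and 175 TPM in iSB09-treated WT, and 205, 229.7 and 269.9 TPM in iSB09-treated CsPYL1_5m. In mock the sums were 131, 179 and 156 TPM in WT and 157, 157 and 184 TPM in CsPYL1_5m, so the library with the highest sum was the one with most of the highest WRKY values in 3 of the 4 groups, all but CsPYL1_5m mock. The 5 seed markers summed to at most 1.07 TPM in WT and to 2.73 to 6.74 TPM in CsPYL1_5m. Only 1 of the 5 passed the filter between the mock groups, and it was called higher in CsPYL1_5m (log2 difference 3.60). The part of these genes in the WRKY results was not tested.

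**Figure D5:**
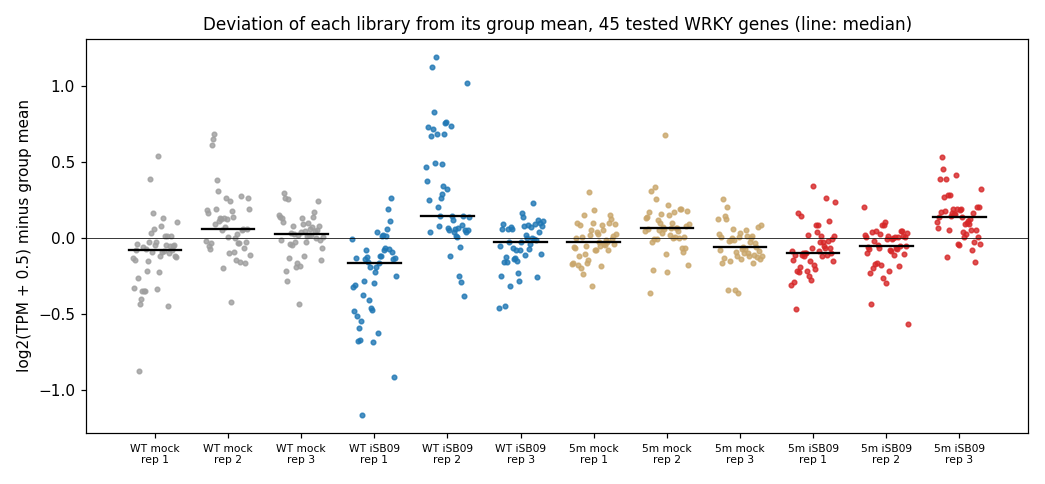
Deviation of each of the 12 libraries from its group mean, as log2(TPM + 0.5) minus the mean of the 3 replicates (vertical axis), for the 45 tested WRKY genes (points) with the median as a line. The points of WT iSB09 replicate 2 reach 1.19, the highest of all libraries, with a median of 0.15.

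The rest of the WRKY family and genes that work with it were looked at beside the 54 members. Over all genes tested, 17.5% were called in CsPYL1_5m and 3.82% in WT, and the counts of these lists were not tested. Calls of the listed genes, also those of the targets and of the touch and wound genes, were not followed with median-ratio scaling or other alternative settings. Values close to the size threshold are therefore uncertain calls. Of 18 further WRKY loci 9 were tested in CsPYL1_5m, where WRKY56 (log2 fold change 2.27) and WRKY24 (2.15) rose, both members of group IIc, and WRKY27 (−1.96) fell; in WT 0 of 8 were called, with log2 fold changes of −0.55, −0.27 and −0.46 for these 3 genes. Among VQ proteins, small partners that bind WRKY proteins, 11 of 14 were tested in CsPYL1_5m. PDE337 (1.59) and AT3G18360 (1.51) rose and SIB1 (−1.08), a partner of WRKY33, fell. Of 10 MAP kinase and kinase kinase genes that act upstream of WRKY proteins, MKK9 rose (1.63) and MPK3 fell (−1.43), with MPK3 at 118 ± 11.5 TPM in mock and 43.4 ± 5.02 TPM after iSB09 in CsPYL1_5m (SD, n = 3) and 112 ± 10.6 TPM and 108 ± 7.91 TPM in WT.

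Among genes described as targets of WRKY proteins, 7 of 10 tested in CsPYL1_5m rose and 2 fell, with a median of 3.25, where 17.5% of all genes were called and their median was −0.16. In WT 2 of 9 tested rose and 1 fell, where 3.82% of all genes were called. The list was drawn up with earlier results of these data known and holds largely ABA-induced genes, so its counts are a description. Between the mock groups only 5 genes of the list passed the filter. The rest of the 10 entered the CsPYL1_5m comparison through their levels after iSB09. The filter thus favoured rises, and the counts and the median of this list are partly set by it. RAB18, an ABA-induced dehydrin gene, rose to 61.6 ± 10.9 TPM in WT, where mock stood at 1.58 ± 1.20 TPM, and to 661 ± 118 TPM in CsPYL1_5m, where mock stood at 1.48 ± 0.728 TPM (SD, n = 3; log2 fold changes 5.03 and 8.44). The other targets that rose were MYB2, NCED3, DREB1A, DREB2A, ABI5 and ABF4, all genes of ABA synthesis, signalling or stress regulation. The camalexin gene PAD3, a target of WRKY33, fell in both genotypes (−1.02 in WT and −1.15 in CsPYL1_5m), and CYP81F2, a glucosinolate gene, fell in CsPYL1_5m (−2.21). Among 11 tested touch and wound genes in CsPYL1_5m, TCH4 (1.62) and RHL41 (1.58) rose and TCH3 (−2.04) fell. In WT ERF6 rose (1.05).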

How the data were processed

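The authors trimmed read pairs with cutadapt, mapped them to TAIR10 with HISAT2 and discarded pairs that did not map uniquely, with HTSeq-count giving unstranded totals for Araport11 genes. The deposited values are TPM and RPKM per gene and library, each made by the authors from those counts; the counts themselves were not used here, and no version of these tools was given in the sources used here. Because discarded pairs are lost most from near-identical copies, levels of such copies are uncertain, and so are those of 11 members that overlap another annotated gene on the opposite strand (WRKY40, WRKY33, WRKY53, WRKY29, WRKY41, WRKY4, WRKY1, WRKY2, WRKY69, WRKY61 and WRKY9).

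From the TPM values, limma 3.58.1 in R 4.3.3 was fitted with a variance trend to log2(TPM + 0.5) of every gene that reached 1 TPM in each of the 3 replicates of a compared group, with Benjamini-Hochberg adjustment over all genes tested. Pairs of groups were fitted on 6 samples and the difference between the responses on all 12. The study's methods use a count test, which TPM does not allow. The fit was tested on simulated data. RPKM multiplied by TAIR10.1 exon length gave whole reads (within 0.02 reads) in all 12 samples for 74.9% of detected annotated genes and for 40 of 54 members, and these reads gave the depths and a limma voom alternative. 3 reads on a gene of 1 kilobase were worth 0.158 to 0.235 TPM; this floor covers counting error only. Upstream windows were read with Python 3.11.15, and that of 1 member is not reported here. WRKY40, WRKY18, WRKY60, WRKY63, WRKY49, all members called in WT and the 12 largest calls in CsPYL1_5m were described in full. The members and lists were chosen with earlier results of these data known.

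Replicate numbers are those of the labels, and the study describes independent experiments. In WT same-numbered mock and iSB09 libraries deviated together from their group means over all genes (correlations 0.164, 0.305 and 0.207). Mock replicate 3 and iSB09 replicate 1 reached 0.178, above the 0.164 of the replicate 1 pair, so a pairing by number is not established. In CsPYL1_5m (0.120, −0.0232 and −0.139) and between the mock groups (0.0979, −0.0180 and 0.07) the same-numbered libraries did not all deviate together.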

Additional observations from a re-analysis of the deposited data

Results flagged for a closer look

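The responses of 7 members to iSB09 differed between WT and CsPYL1_5m by the test of the difference itself (CsPYL1_5m minus WT, limma, 12 samples). The differences on the log2 scale were −4.45 for WRKY49, −2.20 for WRKY47, −1.58 for WRKY22, −1.48 for WRKY46, −1.10 for WRKY7, −1.01 for WRKY42 and 1.07 for WRKY57. All 7 kept their call without WT iSB09 replicate 2, the library that stood apart. WRKY46 lost it without 5 and WRKY42 without 7 of the 12 single libraries left out in turn, and WRKY57 without 2. WRKY42 also lost it with median-ratio scaling, with the RPKM values and with a pseudocount of 1, and WRKY7 with median-ratio scaling. Groups of 3 are too small for a check of single outlying samples.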

How the results depend on the processing

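No member value changed direction while called. Of 3412 values of tested members under alternative settings, 3344 kept their side of the threshold, 49 lost a call, 19 gained one and 0 reversed. The 3344 include uncalled values that changed sign, such as WRKY60 in WT (0.11, and −0.25 without iSB09 replicate 2). The count of 3 members called in WT is the least stable. It was 1 without the filter on low values, 1 without the variance trend, 0 with voom on reads recovered from annotated lengths (32 members tested) and 1 with voom on annotated or fitted lengths, an alternative chosen after seeing the data. Leaving out single libraries gave 0 to 5 members (0 without mock replicate 2 or mock replicate 3) and 420 to 945 genes overall in WT, 13 to 14 members and 3404 to 3657 genes in CsPYL1_5m, and 5 to 10 members and 1765 to 2111 genes for the difference. Voom on annotated lengths called 9 members in CsPYL1_5m and 4 for the difference, where fewer members could be tested. Between the mock groups 13 genes overall became 6 without the filter, 7 without the trend, 6 with the replicate block and median-ratio scaling, 2 with either voom fit and 5 to 14 when single libraries were left out, and 0 members were called under each. The cause of these changes was not tested beyond the number of genes and samples used. In the fit with a replicate block, the members called were the same 3 in WT, 14 in CsPYL1_5m and 0 between the mock groups. For the difference 8 were called, where WRKY75 was gained (1.03). The block made 807 calls over all genes in WT, 3485 in CsPYL1_5m, 16 in mock and 1949 for the difference. What could be detected at the low counts of WRKY63 and the other untested members was not measured.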
